A study of Mus musculus with 16 samples.

Results

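The histone genes of the 4 mouse histone clusters were followed in sorted epithelium of the intestine. Their rows were taken from the deposited count tables by symbol, as every gene whose name begins with Hist1h, Hist2h, Hist3h or Hist4h, which gave 70 of 46882 genes. There are 6 linker H1 genes and 64 core histone genes, namely 20 of H2A, 19 of H2B, 12 of H3 and 13 of H4. The largest cluster by name, Hist1, has 56 of them, all on chromosome 13 (build GRCm38, which is mm10). They lie between positions 21715763 and 23934851, except the pseudogene Hist1h2al, which lies apart at 51202727 to 51203065. Hist2 on chromosome 3 holds 10, Hist3 on chromosome 11 holds 3 and Hist4 on chromosome 6 holds 1. By annotation 67 code for protein and 3 are pseudogenes.

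The libraries came from RedMUC298trTg mice aged 6 to 8 weeks, a line in which an mCherry-tagged MUC2 reporter makes goblet cells fluoresce red. All 4 groups carry the transgene, and each has 4 libraries. They are goblet cells of the distal colon (DC; mCherry-positive), the remaining DC epithelium (other cells; mCherry-negative), goblet cells of section 8 of the small intestine (Si8), and the other cells of Si8. The design asks how goblet cells differ from the epithelium around them and how they differ between both regions. Goblet RNA was purified on MinElute columns and other-cell RNA on Mini columns, so column and cell type cannot be told apart. DC libraries hold 11.9 to 18.5 M counts each and Si8 libraries 30.8 to 41.1 M, so low genes are measured with less error in Si8. By their labels, Si8 libraries are numbered within 1 to 8 and DC libraries within 9 to 18, and each region has its own count table. Region therefore cannot be told apart from any difference in how the libraries of each region were handled. The histone genes took between 0.194% and 0.432% of a library's counts. Nothing in the labels ties a library to an animal, so a p-value here reflects the spread among the 4 libraries of a group, and part of that spread may be technical.

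Histones package DNA into nucleosomes, built from the core histones H2A, H2B, H3 and H4, and linker H1 binds where DNA enters and leaves them. Most cluster genes are replication-dependent: dividing cells transcribe them in S phase to cover newly copied DNA, and their mRNAs end in a conserved stem-loop in place of a poly(A) tail. In the intestine, dividing cells lie in the crypts, and most goblet and absorptive cells above them no longer divide. Total RNA was depleted of ribosomal RNA and not selected for poly(A) before the libraries were made, so transcripts without a tail can be counted.

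The stem-loop letters are shown first because they are what sets the mRNAs of this family apart. A pattern of 16 bases, with GG at positions 1 and 2, TT at 6 and 7, T at 9, A at 11 and CC at 15 and 16, was searched on the sense strand after the stop codon of each annotated transcript, and the capitals mark it.
Hist1h1c: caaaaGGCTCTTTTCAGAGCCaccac
Hist1h2ac: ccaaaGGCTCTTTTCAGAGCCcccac
Hist1h3e: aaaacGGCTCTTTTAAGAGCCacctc
Hist1h4h: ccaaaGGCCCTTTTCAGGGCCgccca
Hist1h4i: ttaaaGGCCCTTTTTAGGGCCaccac
Hist2h2ac: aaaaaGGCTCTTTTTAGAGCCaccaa
Hist3h2a: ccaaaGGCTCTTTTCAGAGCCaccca
The letters were found in 46 of the 67 coding members, between 21 and 58 bases after the stop codon. Within the first 100 bases after the stop they occurred in 57 of 21059 other coding genes (0.271%). The core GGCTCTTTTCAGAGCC was the most frequent, in 26 members of the H1, H2A, H2B and H3 classes, and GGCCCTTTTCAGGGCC was found in 7 members, all of H4. Of the 21 coding members without the letters, 17 are annotated as ending at most 100 bases after the stop codon. The other 4, with longer annotated ends, were Hist1h2bc, Hist2h2be, Hist1h2bq and Hist1h2br, all of H2B.

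The promoters of the 5 linker H1 genes that were counted in quantity are shown because these genes moved apart from each other in the colon. Each line runs from 130 to 21 bases before the RefSeq start on the gene's strand (GRCm38.p6). The capitals mark AAACACA (the H1 box), CCAAT and TATAAA where they stand on that strand.
Hist1h1a: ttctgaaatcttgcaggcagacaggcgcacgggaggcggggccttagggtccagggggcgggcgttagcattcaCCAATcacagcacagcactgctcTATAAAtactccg
Hist1h1b: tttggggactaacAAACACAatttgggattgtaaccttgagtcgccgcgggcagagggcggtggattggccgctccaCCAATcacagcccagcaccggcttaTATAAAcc
Hist1h1c: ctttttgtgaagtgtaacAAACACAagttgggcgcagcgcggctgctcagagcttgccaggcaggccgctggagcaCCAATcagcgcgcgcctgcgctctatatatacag
Hist1h1d: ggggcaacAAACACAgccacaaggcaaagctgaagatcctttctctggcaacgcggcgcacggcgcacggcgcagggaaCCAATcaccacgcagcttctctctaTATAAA
Hist1h1e: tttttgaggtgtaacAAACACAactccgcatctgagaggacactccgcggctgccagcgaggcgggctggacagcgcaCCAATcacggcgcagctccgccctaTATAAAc
In the RefSeq windows of 250 bases before to 50 bases after the start, searched on both strands, AAACACA was in 5 of 6 H1 genes and in 7.18% of 32851 promoters. The H1 gene without it was Hist1h1a. CCAAT was in 53 of the 62 members with a promoter in RefSeq, against 37.4% of all promoters, and the 9 without it were all H4 genes. The octamer ATTTGCAT was in 13 members, all of H2A or H2B, against 1.74% of all promoters. TATAAA was in 35 members, against 13.6%. A match describes the letters and is no evidence of a bound factor.

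Of the 70 genes, 58 had enough counts to be tested and 12 did not. Hist1h1t, Hist1h2aa and Hist1h2ba, known as testis forms, had 94, 2 and 8 counts over all 16 libraries. Hist2h2aa1 and Hist2h3c1 had 0 counts, and only 11.1% and 0% of their windows of 75 bases are found in no other annotated transcript. Hist2h2aa2, with 0% such windows, still had enough counts to be tested. Why the other 2 had 0 counts was not tested. Hist1h2aj, Hist1h2al, Hist1h2ao, Hist1h2ap, Hist1h2bq, Hist1h2br and Hist1h4m had between 8 and 63 counts. The median share of such unique windows over the 70 genes was 57.8%, and in 29 of them it was under 50%. For those 29, counts of single genes are uncertain because reads could be split between near copies. The class sums below do not depend on a split within a class, but they would miss reads left uncounted or counted for genes outside the members. The coding region of Hist3h2a, for example, is also found whole in Trim17.

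Levels are in CPM, counts scaled to a common library total, after TMM scaling, and fold changes are goblet over other cells or DC over Si8, with standard errors. In Si8, the summed level of every class was higher in all 4 goblet libraries than in all 4 libraries of other cells. H1 genes summed to between 972 and 1098 CPM in Si8 goblet cells, against 669 to 843 CPM in Si8 other cells. H4 genes summed to between 839 and 1132 CPM in Si8 goblet cells, against 561 to 738 CPM in Si8 other cells. The ratio of the means was 1.37 for H1, 1.44 for H2A, 1.35 for H2B, 1.44 for H3 and 1.38 for H4. In DC, H1 was the class whose groups did not overlap, in the other direction: 591 to 782 CPM in DC goblet cells, against 947 to 995 CPM in DC other cells. That separation rested on 1 gene: without Hist1h1c, an alternative chosen after seeing the data, the other H1 genes summed to 385 to 519 CPM in DC goblet cells and 430 to 515 CPM in DC other cells, which overlap. For H2A, H2B, H3 and H4 the sums of both DC groups overlapped, with ratios from 0.881 to 0.990. Sums over the members get no test here. In bulk samples, fewer cells of a type and less RNA per cell cannot be told apart.

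**Figure D1:**
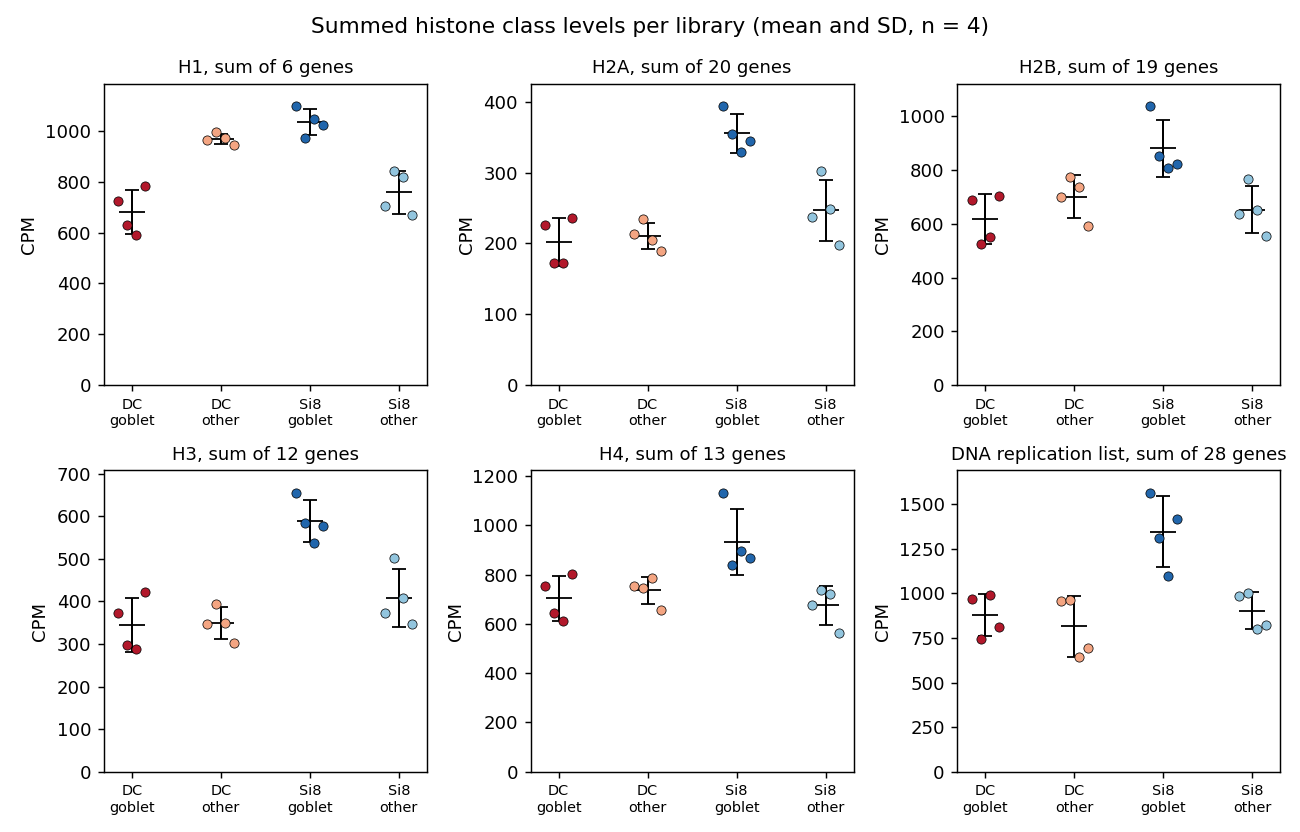
Summed CPM of each histone class and of a list of 28 DNA replication genes in each library, with the mean and SD of the 4 libraries of a group. Si8 goblet libraries lie above Si8 other libraries in all 6 panels, while DC goblet libraries lie below DC other libraries in the H1 panel and overlap them in the other 5.

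In the distal colon, few histone genes separated goblet cells from other cells, and most of those that did were lower in goblet cells. With edgeR's quasi-likelihood test and Benjamini-Hochberg adjustment over all genes, 8 of the 58 tested members were lower in DC goblet cells and 3 were higher. Of all 16001 genes tested, 27.9% were lower and 27.8% were higher, 55.7% in all. The median log2 fold change was −0.04 over the members and 0.03 over all genes. By class, H1 had 2 genes lower, H2A had 2 lower and 1 higher, H2B had 1 lower and 2 higher, H3 had none called, and H4 had 3 lower. With TMM scaling 19 members had a higher and 39 a lower mean in goblet cells. With raw library totals 37 had a higher and 21 a lower mean. That scaling was planned for the class sums and applied to single members after seeing the data. The members whose groups did not overlap were 1 higher and 6 lower with TMM, and 1 higher and 3 lower with raw totals. The share of all genes without overlap was not counted for this comparison. With raw totals the median log2 ratio of means was 0.06 over the members and 0.14 over all genes.

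Hist1h1c, a linker H1 gene (chr13:23738808-23740367, plus strand), stood at 248, 238, 205 and 263 CPM in DC goblet cells, against 485, 482, 456 and 516 CPM in DC other cells. No goblet library reached the lowest other-cell library. Its log2 fold change was −1.02 ± 0.11 (adjusted p = 9.14e-08). The H2B gene Hist1h2bc (chr13:23684199-23692908, plus strand) stood at 98.7, 88.2, 81.0 and 104 CPM in DC goblet cells, against 177, 193, 203 and 168 CPM in DC other cells. These groups did not overlap either, and the log2 fold change was −0.99 ± 0.08 (adjusted p = 5.44e-09). Among H4 genes, Hist1h4i (chr13:22040636-22041362, minus strand) had 11.1, 9.85, 8.37 and 10.8 CPM in DC goblet cells, against 15.1, 13.6, 19.4 and 15.6 CPM in DC other cells. It fell by 0.66 ± 0.13 on the log2 scale (adjusted p = 0.000324), again with no overlap.

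The other called members of lower level in DC goblet cells moved less or had low counts. Hist1h1a, the linker H1 gene without the H1 box, fell by 0.33 ± 0.13 (68.4 ± 6.57 CPM in DC goblet cells, 86.0 ± 12.9 CPM in DC other cells, SD, n = 4 each; edgeR adjusted p = 0.0364), with overlapping libraries. The H4 genes Hist1h4j and Hist1h4n fell by 0.39 and 0.29, and the H2A gene Hist3h2a fell by 0.38. Hist1h2ah, an H2A gene named here after its values were seen, fell by 0.73 ± 0.22 but averaged 1.71 ± 0.403 CPM in DC goblet cells and 2.87 ± 0.684 CPM in DC other cells (SD, n = 4 each), and 9.97% of its windows are unique. Without DC other replicate 3, the calls of Hist1h1a, Hist1h4j, Hist1h4n and Hist3h2a were lost, which left 4 members called lower.

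Hist2h2be, an H2B gene that in mouse is known for its expression in olfactory neurons, was the called member with the largest rise in DC goblet cells. It lies at chr3:96221119-96223738 on the plus strand and is 100% unique in windows. It stood at 12.7, 12.1, 12.6 and 13.2 CPM in DC goblet cells, against 6.46, 9.15, 6.02 and 4.29 CPM in DC other cells. Every goblet library was above every other-cell library, with a log2 fold change of 0.97 ± 0.18 (edgeR adjusted p = 0.000109). Hist2h2ab and the pseudogene Hist3h2bb-ps were also called higher, at 0.63 ± 0.25 and 0.67 ± 0.28, with adjusted p of 0.0377 and 0.0487 from the same test. Both averaged under 3 CPM in both groups, their libraries overlapped, and both calls were lost without DC goblet replicate 1, without DC goblet replicate 4 and without DC other replicate 4.

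**Figure D2:**
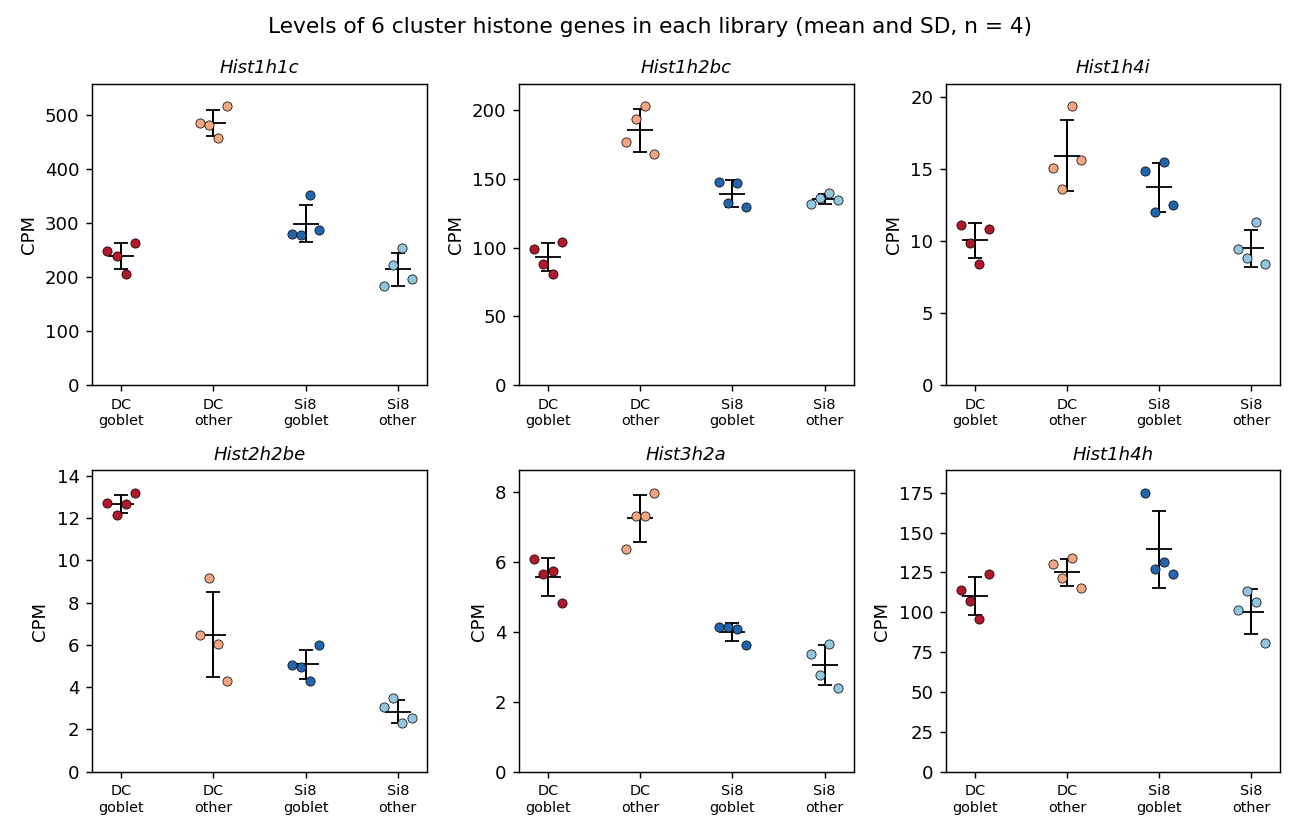
CPM of 6 named histone genes in each library, with the mean and SD of the 4 libraries of a group. Hist1h1c, Hist1h2bc, Hist1h4i and Hist3h2a are lower in DC goblet libraries than in DC other libraries without overlap, Hist2h2be is higher in goblet libraries of both regions, and the Hist1h4h libraries of both cell groups overlap in DC and are apart in Si8.

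In Si8, histone genes of every class were higher in goblet cells than in other cells. The same test called 50 of 58 members higher and 0 lower, against 33.1% of all genes higher and 31.8% lower, 64.9% in all. The count of 0 was also 0 at an unadjusted p under 0.05 and with DESeq2, and became 1 with RLE scaling, where Hist3h2ba had a log2 fold change of −0.56, and 1 without Si8 other replicate 4. The median log2 fold change was 0.51 over the members and 0.03 over all genes. All 5 tested H1 genes and all 12 tested H4 genes were called higher, with 12 of 14 H2A genes, 12 of 16 H2B genes and 9 of 11 H3 genes. In 38 members every goblet library was above every other-cell library, which held for 26.7% of all genes. With raw library totals that number was 11, and 56 of the 58 members still had the higher mean in goblet cells. The share of all genes without overlap was not counted under that scaling.

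Hist2h2be again had the largest fold change of the called members, with 5.02, 4.97, 4.31 and 6.00 CPM in Si8 goblet cells, against 3.06, 3.49, 2.31 and 2.53 CPM in Si8 other cells (log2 fold change 0.83 ± 0.18, adjusted p = 0.000527). The groups did not overlap. Hist1h4a, an H4 gene, had 71.9, 53.9, 59.9 and 66.2 CPM in Si8 goblet cells, against 42.8, 41.4, 37.9 and 33.5 CPM in Si8 other cells (0.70 ± 0.10, adjusted p = 5.40e-06). Hist2h2ac, the H2A gene next to Hist2h2be, had 51.0, 39.1, 42.1 and 42.4 CPM in Si8 goblet cells, against 30.4, 31.3, 27.2 and 21.3 CPM in Si8 other cells (0.66 ± 0.12). Its libraries did not overlap either. The H3 genes Hist1h3d and Hist1h3g had log2 fold changes of 0.61 ± 0.13 and 0.61 ± 0.14, and the H2A gene Hist1h2an had 0.60 ± 0.13.

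Linker H1 genes in Si8 ranged from 0.27 ± 0.10 for Hist1h1e to 0.57 ± 0.11 for Hist1h1d, with Hist1h1b at 0.57 ± 0.12. Hist1h1c had 280, 277, 351 and 287 CPM in Si8 goblet cells, against 184, 223, 254 and 196 CPM in Si8 other cells (0.48 ± 0.11, adjusted p = 0.000542), without overlap. The call of Hist1h1e was lost with RLE scaling (0.21), with DESeq2 (0.21), and without Si8 goblet replicate 1 or Si8 other replicate 1 or 4. The 8 members not called were Hist1h2ad, Hist1h2bp, Hist1h3h, Hist2h2aa2, Hist2h3c2, Hist3h2ba, Hist3h2bb-ps and Hist1h2bc. Hist1h2bc was the only abundant gene among them: 148, 132, 147 and 129 CPM in Si8 goblet cells, against 131, 136, 140 and 135 CPM in Si8 other cells. Its fold change of 0.04 ± 0.08 on the log2 scale did not pass (adjusted p = 0.698).

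**Figure D3:**
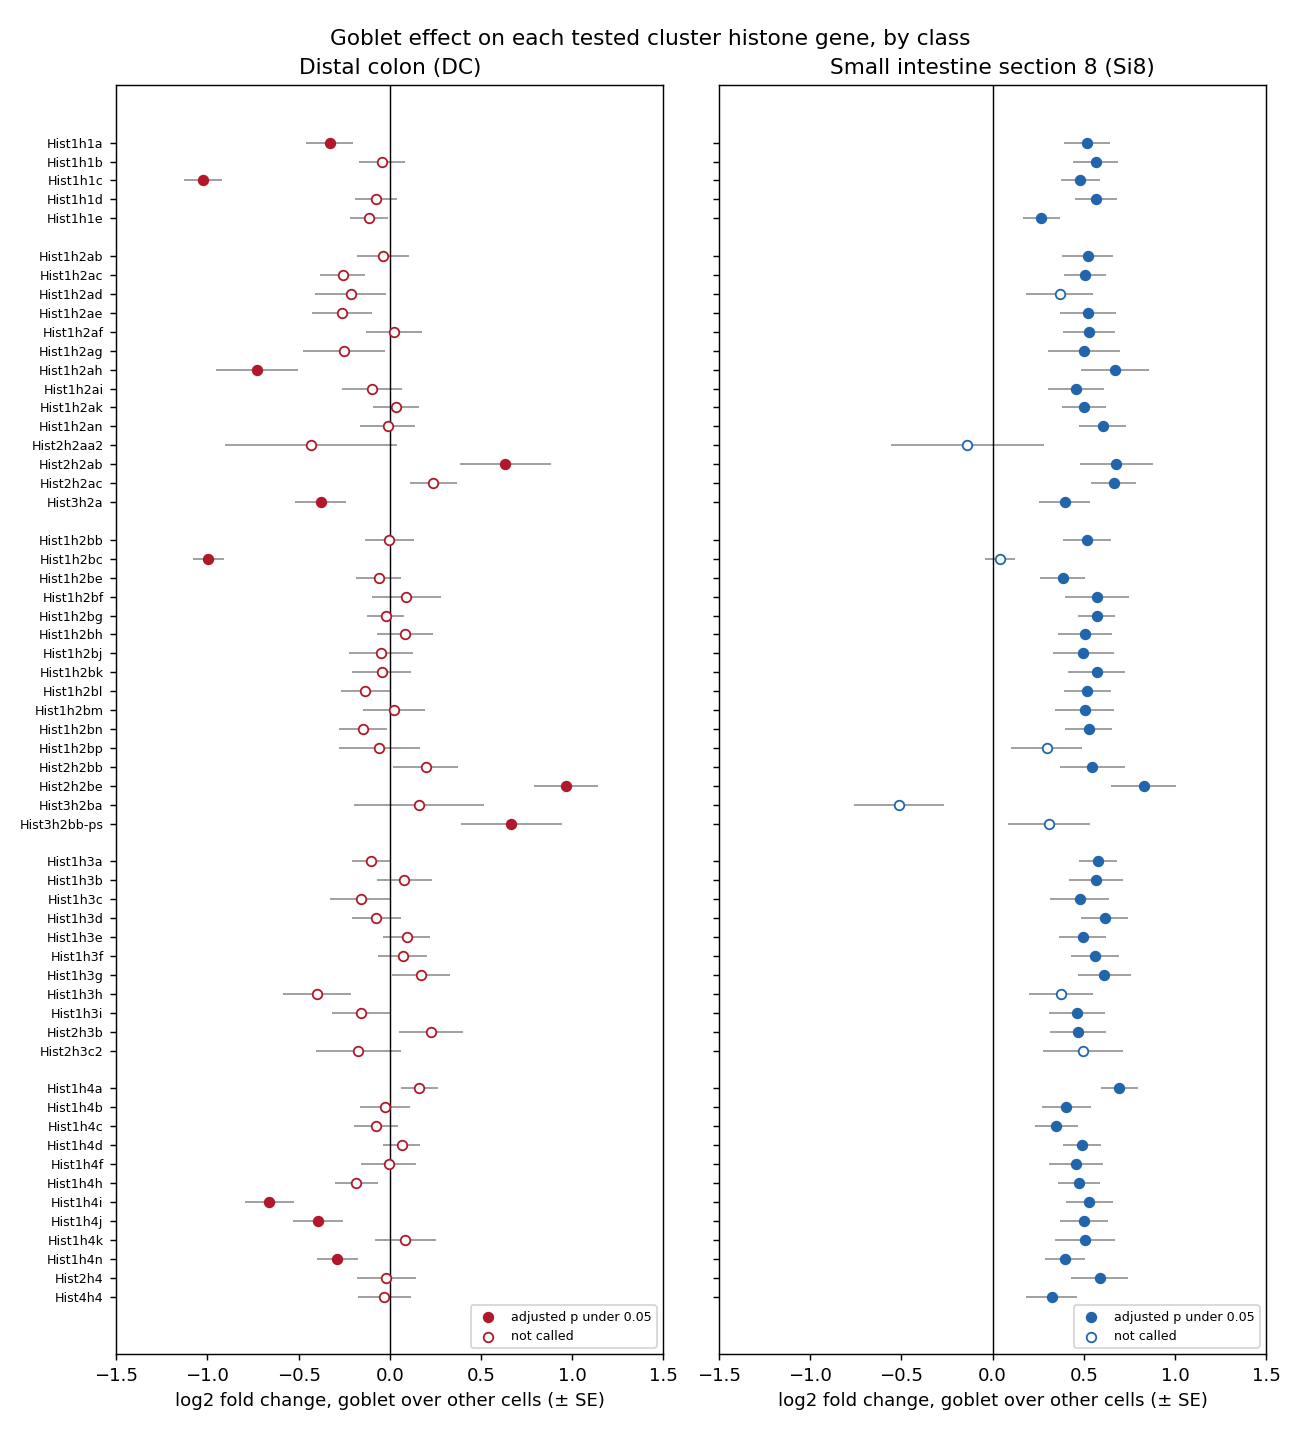
Log2 fold change of goblet over other cells for the 58 tested histone genes in DC (left) and Si8 (right), with standard errors, in order of class; filled points have an edgeR adjusted p under 0.05. In Si8, 50 points are filled and all 50 lie to the right of 0, while in DC 8 filled points lie to the left and 3 to the right.

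The goblet effect itself was compared between both regions with an interaction term of the same fit. It was lower in DC than in Si8 for 29 of 58 members and higher for 0, against 16.5% of all genes lower and 15.6% higher, 32.1% in all. The count of 0 was also 0 at an unadjusted p under 0.05 in edgeR and with DESeq2. The median difference was −0.55 over the members and −0.03 over all genes. No class had a gene called in the other direction, with 4 of 5 H1, 7 of 14 H2A, 6 of 16 H2B, 5 of 11 H3 and 7 of 12 H4 genes called lower. With no filter on low counts 48 were called lower, and the count ranged from 20 to 41 when single libraries were left out. With single libraries left out, between 4700 and 5465 of all genes were called in either direction. The differences were −1.505 ± 0.15 for Hist1h1c (adjusted p = 2.25e-07), −1.19 ± 0.19 for Hist1h4i (adjusted p = 5.08e-05) and −1.03 ± 0.12 for Hist1h2bc (adjusted p = 1.40e-06). Hist1h1c and Hist1h4i were lower in goblet cells of DC and higher in goblet cells of Si8, with no overlap in either region. For Hist2h2be the difference was 0.14 ± 0.25 (adjusted p = 0.716).

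Between regions, goblet libraries of DC had less of most histone mRNAs than goblet libraries of Si8. In that comparison 48 of 58 members were lower in DC and 2 were higher, against 31.5% and 30.6% of all genes, 62.1% together. The median log2 fold change was −0.65 over the members and −0.02 over all genes. The H3 gene Hist2h3b had the largest fall, with 8.84, 8.97, 6.67 and 11 CPM in DC goblet cells, against 31.1, 25.6, 24.4 and 24.8 CPM in Si8 goblet cells (−1.57 ± 0.16, adjusted p = 1.03e-07). Of its windows, 21.5% are unique. Hist1h3g, Hist1h2an, Hist1h2ai and Hist1h2af followed among members of at least 5 CPM, at −1.33, −1.30, −1.28 and −1.04. The 2 members higher in DC goblet cells were Hist2h2be (1.32 ± 0.17) and Hist3h2a (0.48 ± 0.14). Summed by class, DC goblet cells stood at between 0.568 (H2A) and 0.754 (H4) of Si8 goblet cells, with no overlap in any class. The members whose groups did not overlap were 2 higher and 41 lower with TMM, and 3 higher and 11 lower with raw library totals. The share of all genes without overlap was not counted for this comparison. The median log2 ratio of means over the 58 members was −0.65 with TMM and −0.32 with raw totals. Over all genes it was −0.02 with TMM and 0.33 with raw totals.

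In the other epithelial cells, members differed between the regions in both directions with TMM scaling, and were mostly higher in DC with raw library totals. The members whose groups did not overlap were 9 higher and 9 lower in DC with TMM, and 13 higher and 1 lower with raw totals. The share of all genes without overlap was not counted for this comparison. With raw totals the median log2 ratio of means was 0.24 over the members and 0.28 over all genes. By the test, 10 of 58 members were higher in DC and 15 were lower, against 33.3% and 33.6% of all genes, 66.9% together, and the median log2 fold change was −0.03 over the members and 0.00 over all genes. Hist3h2a (1.25 ± 0.14), Hist2h2be (1.18 ± 0.19), Hist1h1c (1.18 ± 0.11), Hist1h4i (0.74 ± 0.13) and Hist1h4n (0.66 ± 0.11) were higher in DC other cells. Hist2h3b (−1.33 ± 0.17), Hist1h3g (−0.88 ± 0.15), Hist1h2ai (−0.72 ± 0.16) and Hist1h2an (−0.69 ± 0.14) were lower in DC other cells. Hist3h2ba had a log2 fold change of −1.51 ± 0.30 at levels of 0.587 ± 0.264 CPM in DC other cells and 1.70 ± 0.498 CPM in Si8 other cells (SD, n = 4 each).

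The regional comparisons depend on how libraries are scaled. With raw library totals in place of TMM, the median of all tested genes shifted by 0.34 between goblet groups and by 0.27 between the groups of other cells, and by 0.11 and 0.03 in the goblet comparisons of DC and Si8. The summed log2 ratio of all 70 members between DC and Si8 goblet cells was −0.57 with TMM and −0.23 with raw totals. Between DC and Si8 other cells it was 0.11 with TMM and 0.38 with raw totals, and the sums of H2A and of H3 changed sign there, each being −0.23 with TMM and 0.04 with raw totals. The tables of both regions also differ in what they hold: mitochondrially encoded genes have 0 counts in all DC libraries and took 3.19% to 8.36% of the counts in Si8 libraries. Leaving those genes out kept the counts of called members within 1.5 times.

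The linker H1 mRNAs differed in makeup. Hist1h1c made up 35.1% ± 1.84 of the H1 counts in DC goblet cells and 50.1% ± 3.29 in DC other cells, against 28.9% ± 3.34 in Si8 goblet cells and 28.2% ± 2.37 in Si8 other cells (SD, n = 4 libraries each). The DC groups did not overlap in this share, and the Si8 groups did. Hist1h1b, Hist1h1d and Hist1h1e each took a larger share of H1 counts in DC goblet cells than in DC other cells, without overlap, at 12.2%, 20.5% and 22.1% against 8.85%, 15.3% and 16.9%. A share falls when another rises, so these values are not independent of Hist1h1c. In level, Hist1h1b had 83.3 ± 11.9 CPM in DC goblet cells and 85.9 ± 12.1 CPM in DC other cells (SD, n = 4 each; edgeR adjusted p = 0.792). Hist1h1d and Hist1h1e had log2 fold changes of −0.07 ± 0.11 and −0.11 ± 0.10 in DC and did not pass.

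**Figure D4:**
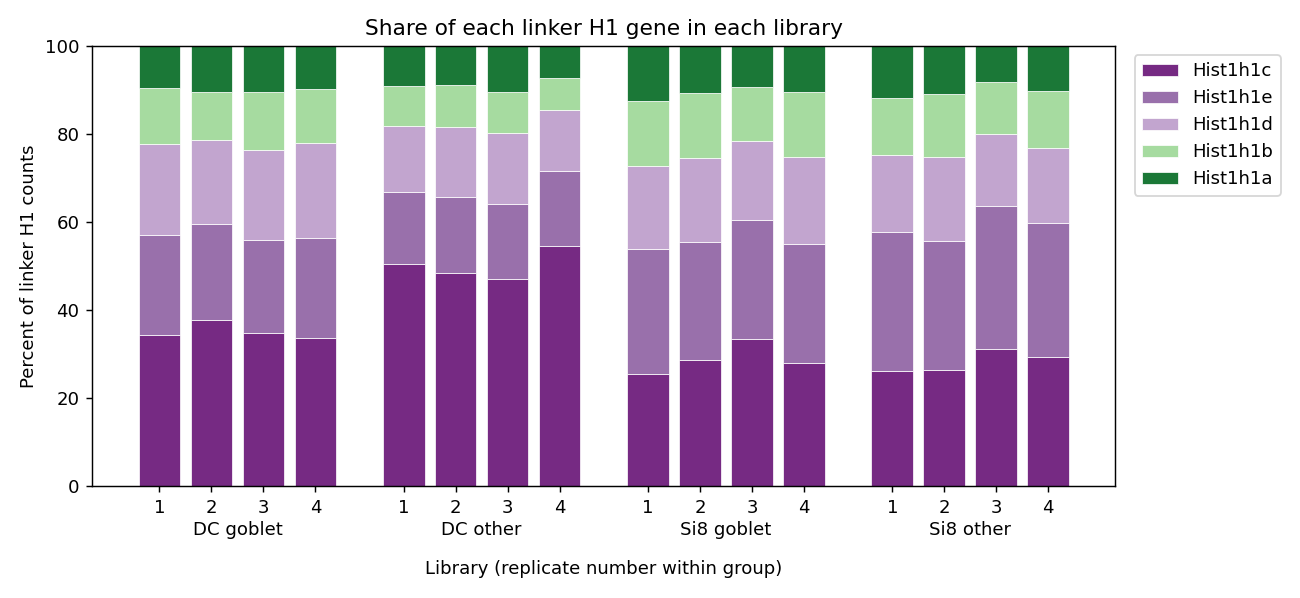
Percent of all linker H1 counts taken by each of 5 H1 genes in every library (the sixth, Hist1h1t, is too rare to see). Hist1h1c takes 33.6% to 37.7% in DC goblet libraries, 47.0% to 54.6% in DC other libraries, 25.5% to 33.5% in Si8 goblet libraries and 26.1% to 31.0% in Si8 other libraries.

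H2B makeup moved in the same comparison. Hist1h2bc took 15.1% ± 1.1 of the H2B counts in DC goblet cells and 26.5% ± 1.70 in DC other cells, and 15.9% ± 1.67 in Si8 goblet cells and 21% ± 2.66 in Si8 other cells. Hist2h2be took 2.08% ± 0.256 in DC goblet cells, 0.911% ± 0.198 in DC other cells, 0.582% ± 0.105 in Si8 goblet cells and 0.436% ± 0.0562 in Si8 other cells (SD, n = 4 libraries each). Per kilobase of exon, the H2B gene with the highest level was Hist2h2bb, at 256 CPM per kilobase in DC goblet cells and 223 in DC other cells, and at 399 in Si8 goblet cells and 273 in Si8 other cells. Hist2h2be stood at 4.84, 2.47, 1.94 and 1.09 CPM per kilobase in the same groups. The H4 gene with the highest level was Hist1h4h, at 234, 266, 297 and 214 CPM per kilobase in the same order, and the H1 gene was Hist1h1c, at 153, 311, 192 and 137. These are the highest of their class by the mean over the 4 groups. Within Si8 goblet cells alone Hist1h1b stood above Hist1h1c, at 197 CPM per kilobase. Without division by length the order was reversed, at 146 CPM for Hist1h1b and 299 CPM for Hist1h1c. Values per kilobase depend on the annotated exon length. That length is 1560 bases for Hist1h1c, 743 for Hist1h1b, 381 for Hist2h2bb and 2620 for Hist2h2be.

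Many H2A and H2B genes lie head to head and share the stretch between their starts. There were 15 such pairs of neighbours at most 1000 bases apart, of which 14 joined an H2A with an H2B gene. Hist1h2ac and Hist1h2bc start 251 bases apart, and in DC goblet cells their log2 fold changes were −0.26 (not called, adjusted p = 0.0799) and −0.99. In Si8 they were 0.51 (called) and 0.04 (not called). Hist2h2ac and Hist2h2be start 239 bases apart and had 0.24 (not called, adjusted p = 0.127) and 0.97 in DC, and 0.66 and 0.83 in Si8. The pair of Hist3h2bb-ps and Hist3h2a, 173 bases apart, had 0.67 and −0.38 in DC, both called. As given above, each of these calls was lost when certain single libraries were left out, and the pseudogene had low counts. Not every pair was this far apart. Hist1h2bl and Hist1h2ai had −0.13 and −0.10 in DC, and 0.52 and 0.46 in Si8. Hist1h2ah and Hist1h2bk were apart in DC, at −0.73 and −0.04, and had 0.67 and 0.57 in Si8. Hist1h2ah averaged 1.71 CPM in DC goblet cells and 2.87 CPM in DC other cells, and 9.97% of its windows are unique. Differences within pairs were not tested. By the stem-loop letters, Hist1h2bc and Hist2h2be were the 2 tested members with a long annotated end and no match. Hist1h1c and Hist1h4i, which also fell in DC goblet cells without overlap, carry the letters. Whether fold changes go with the letters was not tested. Of the 40 tested members with a match, 5 were called lower and 0 higher in DC, and 35 were called higher and 0 lower in Si8. Among all genes, 27.9% were called lower and 27.8% higher in DC, and 33.1% higher and 31.8% lower in Si8.

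Replication genes were read beside the histones, since both are used in S phase. None of 28 genes of DNA replication and S phase passed in DC (median log2 fold change 0.08, from −0.23 to 0.45), and 26 rose in Si8 goblet cells (median 0.64). Among all genes, 27.8% were called higher and 27.9% lower in DC, and 33.1% and 31.8% in Si8. At an unadjusted p under 0.05 in edgeR, 2 of the 28 were higher and 0 lower in DC, and DESeq2 called 0. Mcm2, a subunit of the replicative helicase, had 0.25 ± 0.15 in DC (not called) and 0.65 ± 0.14 in Si8, and Uhrf1, which helps copy DNA methylation, had 0.08 ± 0.19 in DC (not called) and 0.75 ± 0.18 in Si8. Of 18 genes of G2 and mitosis, 1 rose in DC goblet cells, Cdk1 (0.49 ± 0.17), and 18 rose in Si8 goblet cells. The difference of the goblet effect between regions was called lower in DC for 10 of the 28 replication genes and 0 of the 18 mitotic genes, of which 1 had an unadjusted p under 0.05 and 0 were called by DESeq2. It was called lower for 16.5% of all genes. The median difference was −0.47 over the replication genes and −0.36 over the mitotic genes, against −0.03 over all genes. The mitotic genes ranged from −0.55 to −0.22, so they leaned the same way without passing. The summed replication genes stood at 746 to 988 CPM in DC goblet cells and 643 to 960 CPM in DC other cells, and at 1095 to 1563 CPM in Si8 goblet cells and 800 to 999 CPM in Si8 other cells. Divided by that sum, the summed histone CPM was 2.95 ± 0.578 in DC goblet cells and 3.75 ± 0.741 in DC other cells, and 2.85 ± 0.318 in Si8 goblet cells and 3.05 ± 0.395 in Si8 other cells (SD, n = 4 each), and the ranges overlapped in both regions.

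Variant histones are also encoded outside the clusters, many of them by genes that are expressed outside S phase and give polyadenylated mRNAs. Of the variants listed here, H2afx carries the stem-loop letters after its stop codon. Of 12 listed, 11 were tested, with 4 called higher in DC goblet cells and 5 in Si8 goblet cells, and none lower by edgeR at an adjusted or unadjusted p under 0.05 or by DESeq2. Of all genes, 27.8% were called higher in DC and 33.1% in Si8. H1f0, the linker histone known to build up in cells that have stopped dividing, averaged 303 CPM in DC goblet cells and 205 CPM in DC other cells (0.56 ± 0.12, edgeR adjusted p = 0.00069), and 213 CPM in Si8 goblet cells and 147 CPM in Si8 other cells (0.54 ± 0.12). It thus rose in DC where Hist1h1c fell. H2afz, the H2A variant found at promoters, had 0.48 ± 0.13 in DC and 0.65 ± 0.13 in Si8. H2afj rose in DC (0.38 ± 0.08) and had 0.02 ± 0.07 in Si8, and that difference passed (0.37 ± 0.11, adjusted p = 0.0121). The centromeric H3 variant Cenpa had 0.19 ± 0.23 in DC (not called) and 0.68 ± 0.22 in Si8.

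Of 13 listed factors that transcribe and process histone mRNA, 6 rose in DC goblet cells and 0 fell, against 27.8% of all genes higher and 27.9% lower. In Si8 goblet cells 10 rose and 1 fell, against 33.1% of all genes higher and 31.8% lower. The count of 0 was also 0 at an unadjusted p under 0.05 and with DESeq2. Npat, the coactivator of histone genes in S phase, had 0.60 ± 0.09 in DC and 0.71 ± 0.09 in Si8. Cpsf3, the endonuclease that cuts histone pre-mRNA, had 0.67 ± 0.10 in DC and 0.43 ± 0.09 in Si8, and Slbp, which binds the stem-loop, had 0.26 ± 0.08 and 0.21 ± 0.08. Lsm11, part of the U7 particle that guides the cut, had 0.11 ± 0.12 in DC (not called) and 0.75 ± 0.12 in Si8. Hinfp, a factor of H4 promoters, rose in DC (0.23 ± 0.09) and fell in Si8 (−0.26 ± 0.09), and that difference passed (adjusted p = 0.00562).

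Histone chaperones, which carry histones to DNA, were called higher in DC goblet cells for 5 of 19, with none lower by edgeR, where 2 had an unadjusted p under 0.05 and DESeq2 called 1 lower. The share of 5 in 19 is close to the 27.8% of all genes called higher in DC. In Si8 goblet cells 16 were higher and 2 were lower, against 33.1% and 31.8% of all genes. Ipo4, which brings H3 and H4 into the nucleus, had 0.81 ± 0.13 in DC and 1.04 ± 0.13 in Si8. Nasp, which binds linker histones and H3 with H4, had −0.23 ± 0.10 in DC (not called, adjusted p = 0.0599) and 0.47 ± 0.10 in Si8, and that difference passed (−0.70 ± 0.14). The 2 lower in Si8 were Cabin1 (−0.42 ± 0.07) and Daxx (−0.36 ± 0.08), both tied to deposition of the replication-independent H3 variant.

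Markers of other cell types differed between the same groups, and their part in the histone values was not tested. Among all genes, 27.8% were called higher and 27.9% lower in DC goblet cells, and 33.1% and 31.8% in Si8 goblet cells. All 8 goblet markers were higher in goblet cells of both regions, with sums of 38562 to 43630 CPM in DC goblet cells against 446 to 588 CPM in DC other cells, and 125831 to 286860 CPM in Si8 goblet cells against 311 to 790 CPM in Si8 other cells. Of 8 stem and transit amplifying markers, 6 were higher and 1 lower in Si8 goblet cells, and 2 higher and 1 lower in DC goblet cells. All 6 Paneth markers were higher in Si8 goblet cells, with sums of 12400 to 32973 CPM against 673 to 1804 CPM in Si8 other cells, while in DC their sums were 21.8 to 25.2 CPM in goblet cells and 0.526 to 1.13 CPM in other cells. All 8 lymphocyte markers were lower in Si8 goblet cells, with sums of 13 to 22.5 CPM against 238 to 362 CPM in Si8 other cells. In DC the lymphocyte sums were 2.04 to 3.03 CPM in goblet cells and 7.04 to 7.97 CPM in other cells. Absorptive markers summed to 677 to 781 CPM in DC goblet cells and 6068 to 6836 CPM in DC other cells, and to 2455 to 4041 CPM in Si8 goblet cells and 9935 to 18768 CPM in Si8 other cells. Of 8 enteroendocrine markers, 7 were lower in DC goblet cells and 6 in Si8 goblet cells, and of 4 tuft markers 1 and 2 were lower. Of 5 tested B, plasma and myeloid markers, 1 was higher and 4 were lower in DC goblet cells, and 3 were lower in Si8 goblet cells. Of 2 tested stromal markers 2 were lower in DC goblet cells and 1 in Si8 goblet cells, and of 2 tested erythroid markers 1 was lower in DC goblet cells.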

How the data were processed

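Total RNA libraries were sequenced from both ends. The submitters' processing notes list STAR 2.4.0f, HTSeq 0.6.1p1, FastQC 0.11.2 and DESeq2 1.14, and the mm10 build. How strand and multiply mapping reads were handled is not given in the sources used here. The values are raw read counts per gene, deposited by the authors as a table for each region. A table of normalized values was not used. 4 entries with a repeated symbol were left out, and 0 columns of per-sample values were unused.

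Groups came from the labels. A single model of all 4 groups, with no covariate, was fitted in edgeR 4.0.16 (R 4.3.3) after the filterByExpr filter and TMM scaling. Each contrast had a robust quasi-likelihood F test with Benjamini-Hochberg adjustment over 16001 genes, called under 0.05. The common biological coefficient of variation was 0.128. Standard errors were obtained by dividing the size of the log2 fold change by √F. CPM used TMM-scaled totals. The code was tested on simulated data. Near copies were sought with blastn 2.17.0+ (at least 95% identity over 80% of the length). Annotation and transcripts were GENCODE M21, and promoters were from RefSeq. Alternatives were DESeq2 1.42.0, RLE scaling, no filter, raw totals, the groups of a contrast alone, removal of mitochondrially encoded genes or of near copies, and leaving out each library. Members and lists were chosen with earlier results of these data known. Named members are, per contrast, up to 5 called members with the largest and 5 with the smallest fold change at a mean of at least 5 CPM, the highest member per kilobase of each class, all H1 genes, all members outside Hist1, the testis forms and those at 0. Of each other list, up to 3 called genes with the largest change could be named. Mcm2, Slbp, Hinfp, Nasp, Cabin1 and Daxx fall outside that rule and were chosen after their values were seen.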

Additional observations from a re-analysis of the deposited data

Results flagged for a closer look

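Among 144 groups of 4 libraries examined for the named members and class sums, 7 had a library far from the other 3 by Dixon's criterion, and chance flags about 1 group in 20. Si8 goblet replicate 1 was the high library for the sum of all 70 members, at 4319 CPM, and for Hist1h4h (175 CPM) and Hist2h2bb (189 CPM). Hist1h1c stood high in Si8 goblet replicate 3, at 351 CPM. Hist3h2a stood low in Si8 goblet replicate 4, at 3.63 CPM. Hist1h2ai stood high in DC other replicate 2, at 19.7 CPM, and Hist1h3d stood high in Si8 other replicate 2, at 34.8 CPM. Without Si8 goblet replicate 1, the call of Hist2h2bb in Si8 was lost at a log2 fold change of 0.42.

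By edgeR's interaction term (adjusted p under 0.05 over all genes), the goblet effect differed between DC and Si8 for 15 of the 35 named members. Not all 35 were tested. Each of these differences of DC minus Si8 was negative on the log2 scale. Of all genes, 16.5% were called lower and 15.6% higher. Hist1h1a, Hist1h1c, Hist1h2bc, Hist1h4i and Hist1h4j were named in part for their low values in this contrast, so their calls follow from the choice. Among linker H1 genes the difference was −0.84 for Hist1h1a, −0.61 for Hist1h1b, −1.505 for Hist1h1c and −0.64 for Hist1h1d. Among H2A genes it was −0.46 for Hist1h2ak, −0.62 for Hist1h2an and −0.77 for Hist3h2a. It was −1.03 for the H2B gene Hist1h2bc and −0.69 for the H3 gene Hist1h3d. Among H4 genes it was −0.53 for Hist1h4a, −0.66 for Hist1h4h, −1.19 for Hist1h4i, −0.89 for Hist1h4j, −0.69 for Hist1h4n and −0.60 for Hist2h4.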

How the results depend on the processing

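With raw library totals the test was not rerun. Under that scaling 10 members had a higher mean in DC than in Si8 goblet cells, against 4 with TMM. No fold change called for a named member changed sign under the alternatives in which the test was rerun. The untested class sums did: H2A and H3 between other cells, and H2A, H3 and H4 between DC goblet and DC other cells (0.04, 0.09 and 0.04 on the log2 scale), were negative with TMM and positive with raw library totals, the last 3 within the spread between libraries. In DC the sums of H2A and H3 were also positive without DC goblet replicate 2 or 3, and that of H3 without DC other replicate 2. No paired analysis was possible because the labels give every library its own number and none ties a library of one group to a library of another. With RLE scaling 1 member was lower in Si8 goblet cells, and with no filter on low counts 48 had a smaller goblet effect in DC. With raw library totals the log2 ratios of class sums between DC and Si8 goblet cells were −0.26 (H1), −0.48 (H2A), −0.18 (H2B), −0.43 (H3), −0.0697 (H4) and −0.23 (all), and between DC and Si8 other cells 0.62, 0.0364, 0.37, 0.0379, 0.39 and 0.38. Without near copies the H2A ratio between other cells was −0.000734. Without Hist1h1c the H1 log2 ratio was −0.13 between DC goblet and DC other cells and −0.17 between DC and Si8 other cells, against −0.51 and 0.35 with it. The cause was not tested, beyond the change of scale itself. Leaving out single libraries, members called in DC ranged from 1 to 3 higher and 4 to 10 lower, and in Si8 from 41 to 52 higher and 0 to 1 lower. Between goblet cells 42 to 49 were lower in DC, between other cells 9 to 12 were higher and 10 to 19 lower, and the goblet effect was smaller in DC for 20 to 41. Of all 16001 genes, the same runs called 8199 to 9073 in DC and 9535 to 10529 in Si8, in either direction. They called 9305 to 10101 between goblet cells, 10188 to 10742 between other cells, and 4700 to 5465 for the difference of the goblet effect. Genes with few reads and near-identical copies are limited by depth and by read assignment.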
